A study of Homo sapiens with 8 samples.

Results

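H3K27ac peaks at gene starts, called promoter peaks here, were described in 4 lines of H3122, a human lung adenocarcinoma cell line driven by the EML4-ALK fusion. A promoter peak was a peak shorter than 10000 bp that reached within 1000 bp of the start of a paired gene. Of 126470 peaks, 21032 (16.6%) met this rule, and they reached the starts of 20973 genes. The rule used positions and lengths and no level or change, though length goes with level. The lines were treatment-naive cells and 3 derivatives with resistance evolved under rising doses of an ALK inhibitor. These derivatives were erCriz0, maintained in 0.5 µM crizotinib, erAlec0, maintained in 2 µM alectinib, and erLor0, maintained in 2 µM lorlatinib. All 4 lines derive from 1 cell line, each resistant line is a single derivative, and the labels give 0.1% DMSO, the vehicle, as the treatment for ChIP-seq. RNA was isolated after 48 h without inhibitor, per the methods. Each line gave 1 ChIP-seq and 1 RNA-seq library, so no difference could be set against replicates and none was tested. The other 4 samples of the series were not analysed here.

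H3K27ac is the acetylation of lysine 27 on histone H3, a mark of active promoters and enhancers. At an active start it lies on the nucleosomes flanking a stretch of open DNA where RNA polymerase II assembles. Many mammalian promoters lie in CpG islands, stretches in which CpG dinucleotides were not lost, and these often serve housekeeping genes. Promoters outside islands more often serve tissue-restricted genes, and some of them hold a TATA box.

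Levels are rlog values, log2 of normalised read counts drawn toward the mean over the libraries where reads were few, so they understate the changes of low peaks. A change is given as resistant minus naive, in rlog, and a peak was called up at a change of 1 or more and down at -1 or less. A gene counted as expressed when its RNA rlog reached 4.64, the log2 of 25 reads, in 1 library or more. The lines expressed 5 of 5 epithelial markers, at 11.38 to 15.17. Of 11 leukocyte, fibroblast and endothelial markers, 2 (COL1A1 and CDH5) were expressed and 1 (PTPRC) was at 0 in all libraries. The summed rlog of these 11 was 22.6 in naive cells and 23.7, 25.2 and 24.8 in erCriz0, erAlec0 and erLor0, and its part in the results was not tested.

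The promoters on which the results turn differed in sequence. The stretches below are the 150 bases upstream of the start in RefSeq (GRCh38.p14), written 5′ to 3′ on the gene's strand. Capitals mark letters of 1 of 10 motifs listed further on, on either strand, and positions count back from the start. The first pair rose together with RNA in 1 resistant line and held few or no CpG.
SERPINB3 (chr18:63661894-63662043, minus strand): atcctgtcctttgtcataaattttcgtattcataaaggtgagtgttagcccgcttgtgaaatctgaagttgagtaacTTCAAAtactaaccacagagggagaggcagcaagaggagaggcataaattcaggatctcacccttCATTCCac
TCHHL1 (chr1:152089065-152089214, minus strand): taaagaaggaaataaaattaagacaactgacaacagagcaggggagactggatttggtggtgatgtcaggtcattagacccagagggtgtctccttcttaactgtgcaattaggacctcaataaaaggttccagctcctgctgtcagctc
The SERPINB3 stretch held 2 CpG and the TCHHL1 stretch held 0. The next pair fell with RNA in erAlec0 and erLor0, and both held TATA-box letters close to the start.
BPIFB2 (chr20:33007554-33007703, plus strand): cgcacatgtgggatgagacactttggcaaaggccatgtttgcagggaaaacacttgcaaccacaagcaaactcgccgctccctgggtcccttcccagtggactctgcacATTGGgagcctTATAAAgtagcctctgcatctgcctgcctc
BPIFA2 (chr20:33161620-33161769, plus strand): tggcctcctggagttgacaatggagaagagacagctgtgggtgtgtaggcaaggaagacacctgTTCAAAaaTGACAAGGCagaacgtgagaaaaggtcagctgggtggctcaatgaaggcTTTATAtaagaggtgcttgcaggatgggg
These letters began at -30 in BPIFB2 and at -29 in BPIFA2. The following 4 were CpG-rich. LPAR3 rose together with RNA in erLor0, while E2F7, CENPU and ZNF367 gained H3K27ac as their RNA fell.
LPAR3 (chr1:84893207-84893356, minus strand): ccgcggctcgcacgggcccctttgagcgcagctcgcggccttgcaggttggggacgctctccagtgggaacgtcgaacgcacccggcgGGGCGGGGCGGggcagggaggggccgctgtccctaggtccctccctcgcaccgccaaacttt
E2F7 (chr12:77065570-77065719, minus strand): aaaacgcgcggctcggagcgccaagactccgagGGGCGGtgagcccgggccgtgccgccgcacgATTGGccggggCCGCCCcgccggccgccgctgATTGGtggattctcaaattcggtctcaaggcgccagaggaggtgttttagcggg
CENPU (chr4:184734097-184734246, minus strand): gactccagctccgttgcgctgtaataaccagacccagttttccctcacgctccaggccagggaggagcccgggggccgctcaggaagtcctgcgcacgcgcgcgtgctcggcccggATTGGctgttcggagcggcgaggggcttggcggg
ZNF367 (chr9:96418371-96418520, minus strand): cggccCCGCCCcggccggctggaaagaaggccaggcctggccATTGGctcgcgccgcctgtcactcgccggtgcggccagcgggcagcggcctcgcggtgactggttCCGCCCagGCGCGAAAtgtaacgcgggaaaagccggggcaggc
The LPAR3, E2F7, CENPU and ZNF367 stretches held 18, 21, 16 and 20 CpG, and the last 3 shared the CCAAT-box letters. Other promoters with such changes were not printed. MYB, which also gained H3K27ac as RNA fell, held 15 CpG and no CCAAT-box letters in a stretch outside its peak. AASS rose together with RNA in erAlec0 and held 10 CpG and CCAAT-box letters. SEMA3F and NEDD9 fell with RNA in erCriz0 and held 21 and 2 CpG and no TATA-box letters. The stretches of SERPINB3, TCHHL1, BPIFB2, BPIFA2, LPAR3, E2F7 and ZNF367 lay inside their peaks, and 119 of 150 bases of CENPU did.

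Promoter peaks had higher levels than peaks elsewhere. Their median length was 1364 bp, with quartiles of 503 and 2787 bp, against 458 bp for the 103820 other peaks under 10000 bp, a description only, since the rule uses length and a longer peak reaches a start more easily. In naive cells the median level per kb was 5.84 at promoters and 5.13 elsewhere. In erCriz0 the medians were 6.15 and 5.02, in erAlec0 6.10 and 5.12, and in erLor0 6.19 and 4.98. The promoter median exceeded that of other peaks in every library, by 0.71 in naive cells and by 0.97 to 1.21 in the resistant lines. An rlog of 3.91, the log2 of 15 reads, was reached in 1 library or more by 18020 promoter peaks (85.7%) and by 64.3% of other peaks, and 267 promoter peaks were at 0 in all libraries. The longest promoter peak had 9999 bp, and the shortest start-overlapping peak left out had 10004 bp. The 854 start-overlapping peaks left out for their length had a median naive rlog of 11.31, against 6.21 for promoter peaks. Changes in erCriz0 ranged from -0.61 to 0.81 over the 5 longest peaks kept and from -0.49 to 1.02 over the 5 shortest left out. In erAlec0 the ranges were wider outside the limit, at -0.84 to 0.40 for those kept and -1.86 to 2.17 for those left out. In erLor0 they were -0.54 to 0.55 and -0.79 to 0.91.

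Most promoter peaks served 1 gene. They reached 1 start in 15593 cases, 2 in 4656 and more in 783, with 9 starts in 1 peak at most. The start base itself was covered for 16118 genes (76.9%). Of the 20973 genes, 12403 (59.1%) were protein-coding and 5178 (24.7%) were long non-coding RNA genes, of which 80.7% and 9.17% were expressed. Among the 12701 expressed genes of the table, 10763 (84.7%) had a promoter peak, 671 only a peak of 10000 bp or more, and 1267 neither. Median naive RNA levels over these 3 groups were 8.24, 9.02 and 6.63. Genes with a promoter peak thus lay between those with a broad peak and those without one. A peak was also present at 10210 genes that were not expressed, where its naive median was 6.26 against 7.96 at expressed genes.

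Promoter acetylation followed RNA level across genes to a moderate degree. With genes ordered by peak level per kb into 5 equal classes, the median naive RNA rlog was 6.86 in the lowest class, 8.36 in the middle class and 9.11 in the highest. Spearman correlations across the 10763 expressed genes were 0.34 in naive cells, 0.33 in erCriz0, 0.35 in erAlec0 and 0.33 in erLor0. These points are genes of 1 library and not replicates, and neighbouring genes can share a peak.

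The median promoter peak lay higher relative to naive cells than the median of other peaks in every resistant line. In erCriz0, 1375 promoter peaks (6.54%) were up and 452 (2.15%) down, where 7.00% of all peaks were up and 5.94% down. In erAlec0, 2165 (10.3%) were up and 883 (4.20%) down, where 14.1% of all peaks were up and 9.41% down. In erLor0, 1986 (9.44%) were up and 703 (3.34%) down, where 7.45% of all peaks were up and 8.82% down. Falls were thus scarcer at promoters than over all peaks in the 3 lines, whereas rises were more frequent only in erLor0. That direction turned once the GC content of the peaks was taken into account. With the median of other peaks in the same of 50 classes of GC content subtracted, 8.39% of promoter peaks and 8.60% of other peaks were up in erLor0, while 2.71% and 7.42% were down. Promoters were called less often in either direction, at 8.69%, 14.5% and 12.8% in erCriz0, erAlec0 and erLor0, against 12.9%, 23.5% and 16.3% of all peaks.

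**Figure D1:**
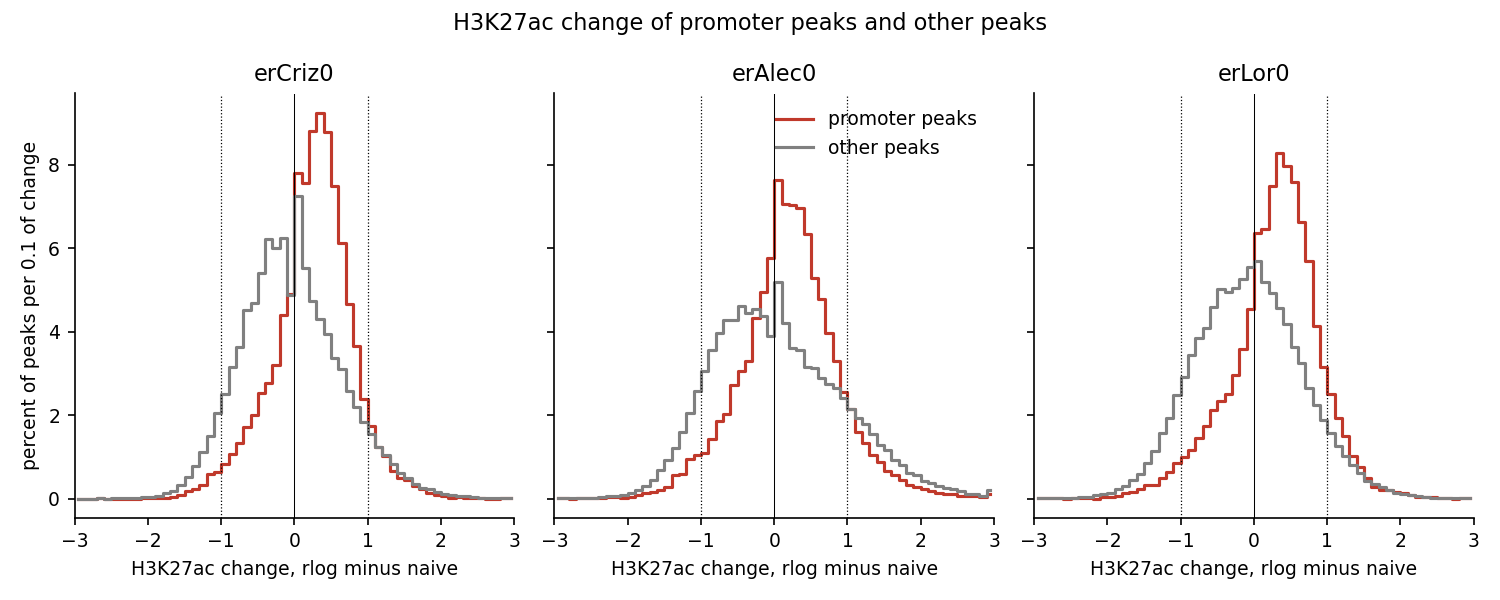
Distribution of the H3K27ac change (x axis, rlog of the resistant line minus naive) as percent of peaks per 0.1 of change (y axis), for 21032 promoter peaks (red) and 103820 other peaks under 10000 bp (grey), with dotted lines at -1 and 1 and changes beyond 3 in the outermost classes. The middle of the promoter curve lies to the right of the other in each panel, while in erAlec0 other peaks are the more frequent above 1, with medians of 0.29, 0.21 and 0.34 against -0.08, -0.04 and -0.08.

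The shift was small and broad. Promoter peaks had median changes of 0.29 (erCriz0), 0.21 (erAlec0) and 0.34 (erLor0), where other peaks had -0.08, -0.04 and -0.08. Levels above naive were found at 71.8%, 64.0% and 72.0% of promoter peaks, against 45.0%, 47.5% and 44.3% of other peaks. The ratio of promoter peaks up to promoter peaks down was 3.04, 2.45 and 2.83, while other peaks gave 1.06, 1.43 and 0.707. Peaks of 10000 bp or more at a start had medians of 0.12, -0.02 and 0.11 (n = 854). Ribosomal protein genes, used as housekeeping genes, showed the shift without calls. Of 83 such genes, 74 had a promoter peak, 0 were up or down in any line, and their median changes were 0.40, 0.34 and 0.38, with changes from -0.51 to 0.89 over all lines.

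All 3 comparisons share the 1 naive library. Set against each other, the resistant lines had promoter medians close to 0. The median of erAlec0 minus erCriz0 was -0.07, that of erLor0 minus erCriz0 was 0.06 and that of erAlec0 minus erLor0 was -0.11. A difference of 1 or more in either direction was found at 15.6%, 11.3% and 3.67% of promoter peaks in these pairs, against 30.7%, 21.1% and 9.23% of other peaks. Single promoters of erAlec0 and erLor0 thus differed from erCriz0 about as often as from naive cells, and erAlec0 and erLor0 were the closest pair. Whether the common shift belongs to the naive cells or to their library cannot be told apart. After quantile normalization of the libraries, the promoter medians were 0.10, 0.08 and 0.21, still above those of other peaks at -0.06, -0.10 and -0.04.

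Falls were scarcer at promoters at each level of H3K27ac. Within 10 equal classes of mean level, the share of promoter peaks down was below that of other peaks in 10 of 10 classes in each line. The share up was higher at promoters in 7 classes in erCriz0, in 0 in erAlec0 and in 7 in erLor0. In the highest class, which held 6204 promoter peaks, 0.580%, 2.45% and 1.19% were down in erCriz0, erAlec0 and erLor0, against 2.28%, 10.6% and 6.89% of the 4834 other peaks. In that class 2.48%, 4.21% and 4.19% of promoter peaks were up, against 7.32%, 11.8% and 10.1%. The strongest promoter peaks were therefore called less often in either direction than equally strong peaks elsewhere.

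**Figure D2:**
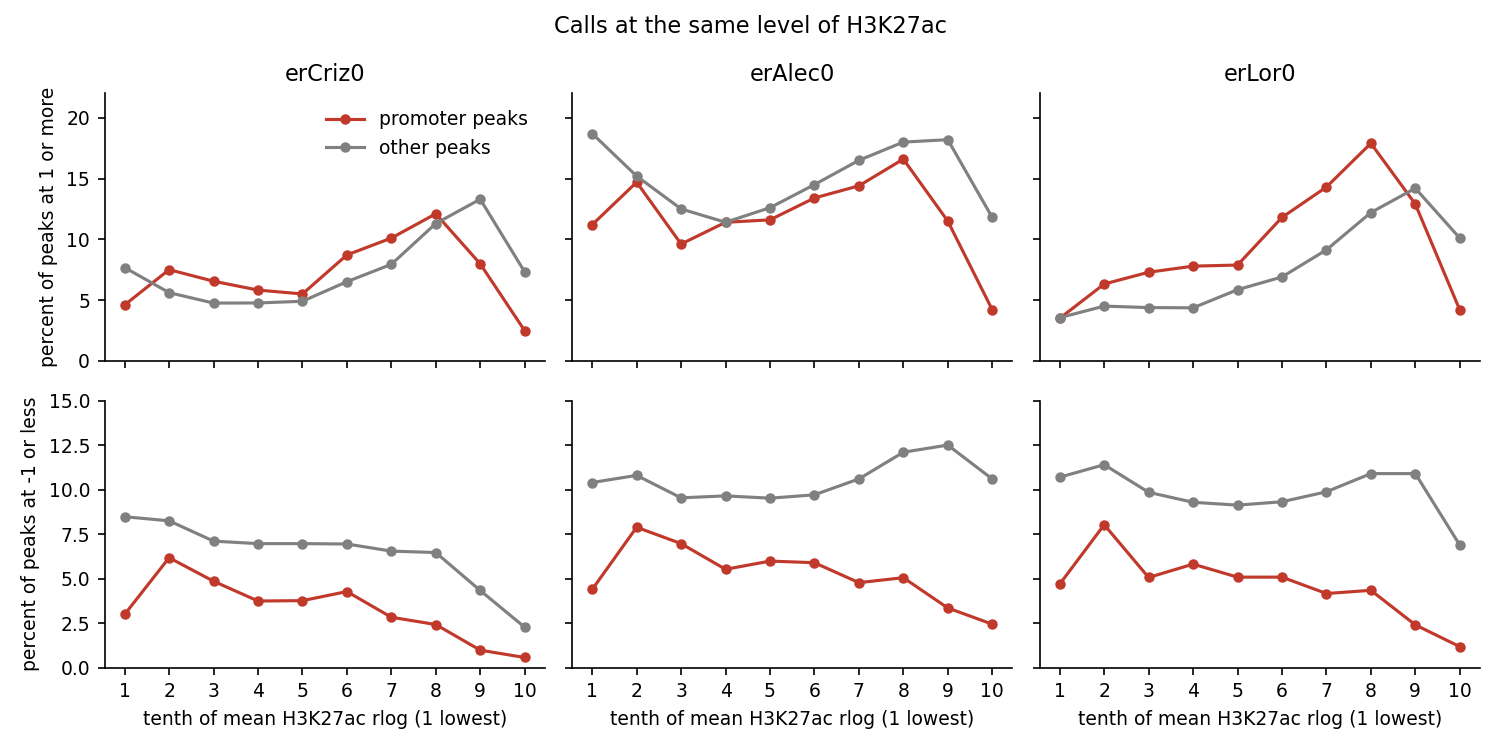
Percent of peaks with a change of 1 or more (top) and of -1 or less (bottom) in 10 equal classes of mean H3K27ac rlog (x axis, lowest to highest), for promoter peaks (red) and other peaks under 10000 bp (grey). In the bottom panels the promoter points lie below the others in 10 of 10 classes, as in the highest class of erAlec0 with 2.45% against 10.6%.

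CpG content divided the promoters in the direction of their changes. A peak was called CpG-rich at a GC content of at least 50% and an observed-to-expected CpG ratio of at least 0.6, which held for 7796 promoter peaks (37.1%) and 3.68% of other peaks. CpG-rich promoter peaks were down in 18, 35 and 17 cases in erCriz0, erAlec0 and erLor0, which is 0.231%, 0.449% and 0.218%. The 13236 CpG-poor promoter peaks were down in 434, 848 and 686 cases, which is 3.28%, 6.41% and 5.18%. Nearly all promoter peaks that fell were thus CpG-poor. Rises were found in both classes, in 550, 894 and 1156 CpG-rich peaks (7.05%, 11.5% and 14.8%) and in 825, 1271 and 830 CpG-poor peaks (6.23%, 9.60% and 6.27%). Median changes were 0.44, 0.40 and 0.57 at CpG-rich promoters and 0.16, 0.04 and 0.16 at CpG-poor promoters.

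The split of falls by CpG content was seen at each level of H3K27ac, and that of rises was not. In the lowest of 3 equal classes of level, 0.952%, 0.896% and 0.672% of CpG-rich promoters were down in erCriz0, erAlec0 and erLor0, against 5.22%, 7.58% and 6.83% of CpG-poor ones. Rises were more frequent at CpG-rich promoters in the lowest class, at 10.1%, 14.6% and 17.9% against 5.51%, 11.3% and 4.82%. In the middle class they were so in erAlec0 (15.9% against 12.7%) and erLor0 (21.4% against 10.2%) but not in erCriz0 (9.59% against 10.4%). In the highest class they were less frequent at CpG-rich promoters in each line, at 1.75%, 3.61% and 4.29% against 3.65%, 5.02% and 4.73%. In that class 0.0760% and 0.0380% of CpG-rich promoters were down in erAlec0 and erLor0, against 3.91% and 1.94% of CpG-poor ones. Base composition moved with the change outside promoters too. The 3820 CpG-rich other peaks had medians of 0.17, 0.14 and 0.31, against -0.10, -0.06 and -0.11 for CpG-poor ones. After the subtraction by GC class described above, which sets the median of other peaks to 0.00, promoter medians were 0.33, 0.27 and 0.35. CpG-rich promoters then had 0.46, 0.48 and 0.53 and the remaining promoters 0.23, 0.11 and 0.21. The gap between promoter and other medians thus went from 0.37 to 0.33 in erCriz0, from 0.25 to 0.27 in erAlec0 and from 0.42 to 0.35 in erLor0.

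**Figure D3:**
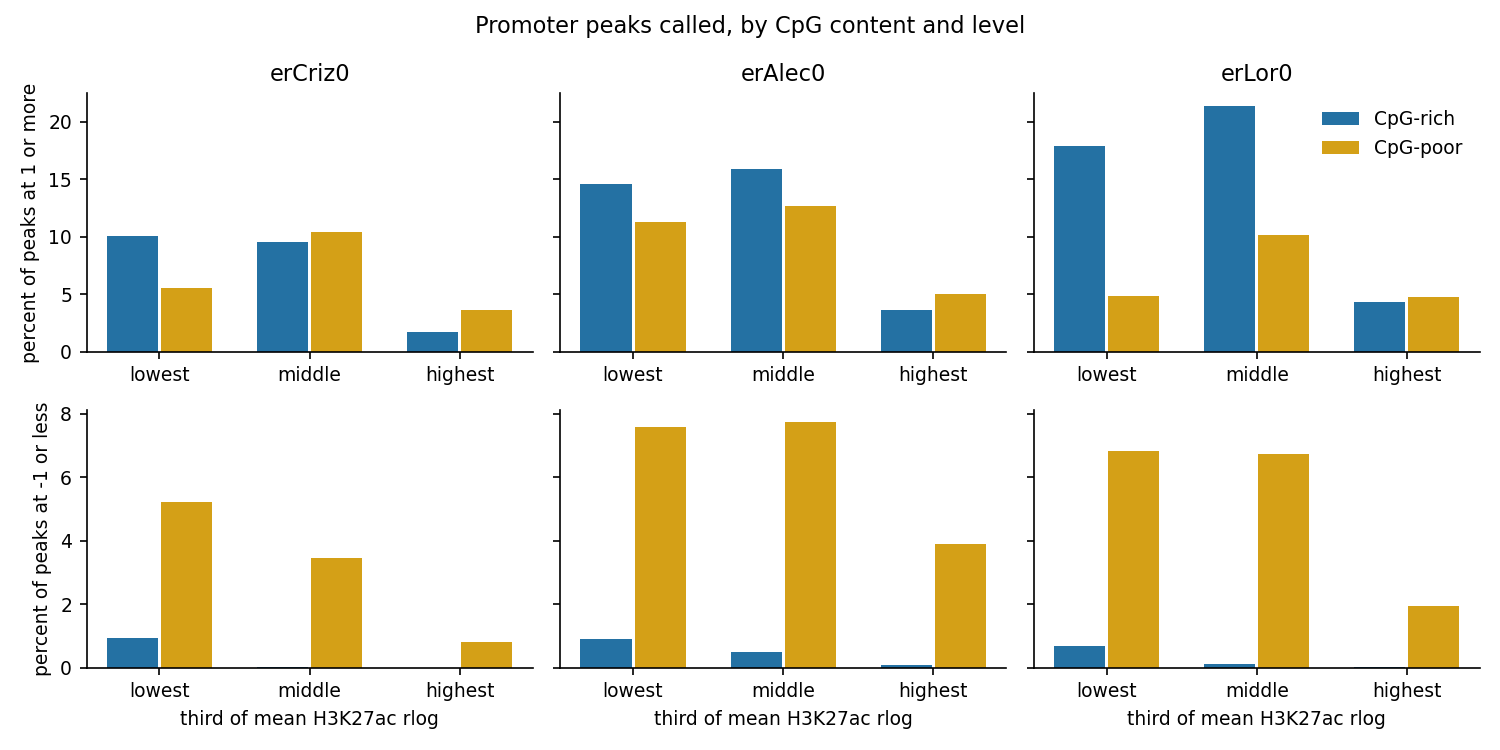
Percent of promoter peaks with a change of 1 or more (top) and of -1 or less (bottom) in 3 equal classes of mean H3K27ac rlog (x axis), for CpG-rich (blue) and CpG-poor (yellow) peaks, with bars starting at 0. The blue bars in the bottom panels stay at 0.952% or lower in each class and line, while the yellow bars reach 7.74% in erAlec0.

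Promoters shared by genes facing apart were strong and seldom called. Of the peaks reaching 2 starts, 2158 lay between genes on opposite strands that face away from each other. Their median level per kb in naive cells was 6.55, against 5.63 for promoter peaks with 1 start. They were up in 3.85%, 6.49% and 6.21% of cases in erCriz0, erAlec0 and erLor0, against 7.36%, 11.5% and 10.3% with 1 start, and down in 0.463%, 1.44% and 0.649%, against 2.68%, 5.06% and 4.17%. Both genes were expressed at 653 of them. Such a peak was up with both genes expressed in 7, 22 and 15 cases, and both RNAs were up in 0, 0 and 1 of these. RNA was up at 2.27%, 2.03% and 0.929% of all expressed genes with a promoter peak, so these counts tell nothing particular to shared promoters.

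Genes whose RNA rose by 1 or more had a larger median promoter gain in each line, which in erAlec0 did not hold with a limit of 2. For this comparison each expressed gene was given the promoter peak nearest its start, and over the 10763 such genes the peak was up in 4.27% and down in 0.372% in erCriz0, in 7.06% and 0.994% in erAlec0, and in 8.19% and 0.613% in erLor0. RNA was up at 2.65% and down at 1.65% of the 12701 expressed genes in erCriz0, at 2.46% and 2.07% in erAlec0, and at 1.10% and 0.740% in erLor0. In erCriz0 the promoters of 244 genes with RNA up had a median change of 0.78, those of 164 with RNA down 0.26 and the remainder 0.35. In erAlec0 the medians were 0.50 for 218 genes with RNA up, 0.35 for 226 with RNA down and 0.27 for the remainder. In erLor0 they were 0.86 for 100 genes with RNA up, 0.04 for 74 with RNA down and 0.43 for the remainder. The promoters of genes with RNA down were thus lower than the remainder in erCriz0 and erLor0, and not in erAlec0. With a limit of 2 their medians were 0.40, -0.28 and -0.94 in erCriz0, erAlec0 and erLor0, over 6, 15 and 11 genes. Genes with RNA up then had medians of 0.89, 0.19 and 1.21, over 45, 16 and 3 genes. Over all expressed genes with a promoter peak the medians were 0.36, 0.27 and 0.43. The order thus depended on the limit for RNA down in erCriz0 and erAlec0, and for RNA up in erAlec0.

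Genes with RNA up also had higher changes at their other peaks. Over the genes of this kind that had other peaks, the promoter median was 0.77, 0.50 and 0.86 and that of the other peaks 0.21, 0.05 and 0.27, against 0.35, 0.27 and 0.42 and -0.06, -0.08 and -0.03 over all such genes. The promoter lay above the other peaks in 82.1%, 69.5% and 86.3% of genes with RNA up and in 80.1%, 70.5% and 81.7% of all genes, so this order was not particular to genes with RNA up. The promoter peak was up at 73 of 244 genes (29.9%) in erCriz0, at 54 of 218 (24.8%) in erAlec0 and at 44 of 100 (44%) in erLor0. Most genes with RNA up therefore had no promoter peak past the limit. Among genes with RNA down, the peak was down at 5 of 164, 5 of 226 and 10 of 74, and up at 11, 31 and 1. Read from the peak, RNA was up at 73 of 460 genes with the peak up in erCriz0, at 54 of 760 in erAlec0 and at 44 of 881 in erLor0, with median RNA changes of 0.25, 0.08 and 0.13. Spearman correlations of promoter and RNA change across genes were 0.24, 0.05 and 0.14 in erCriz0, erAlec0 and erLor0.

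**Figure D4:**
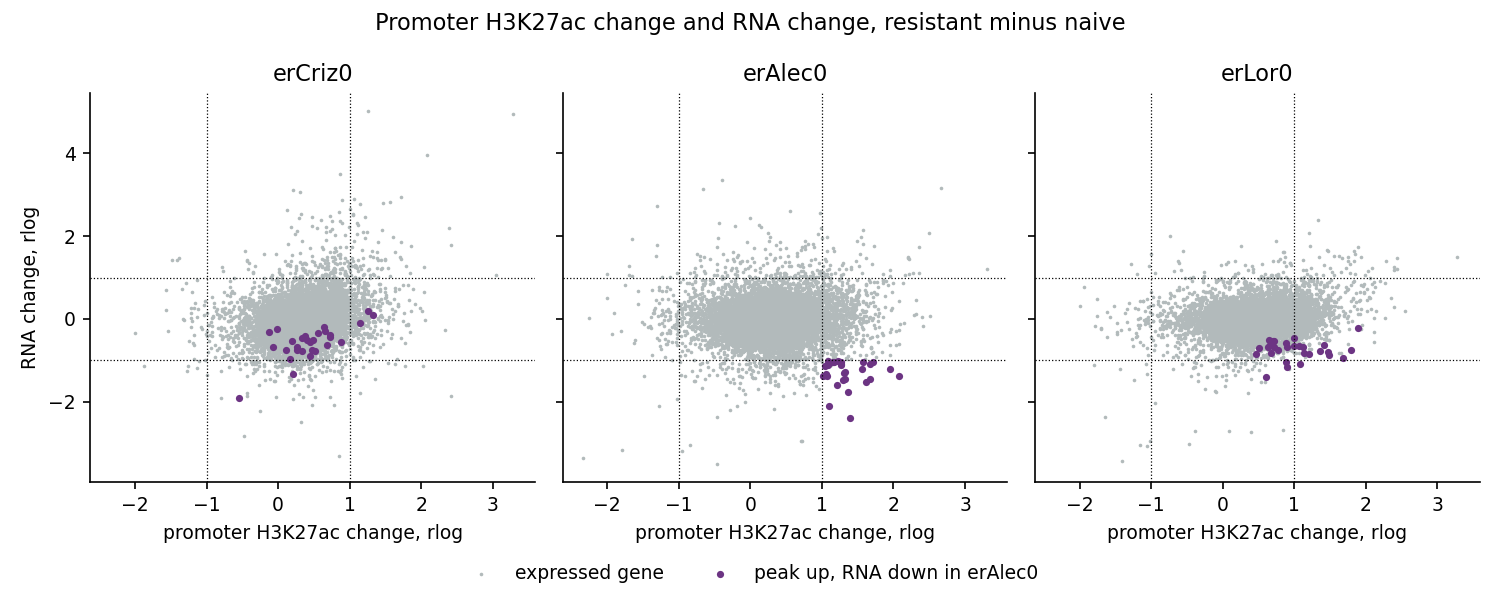
RNA change (y axis) against change of the promoter peak nearest the start (x axis), both as rlog of the resistant line minus naive, for 10763 expressed genes (grey, 1 point per gene) with dotted lines at -1 and 1. Purple points are the 29 genes with peak up and RNA down in erAlec0, which lie above 0 on the x axis and below 0 on the y axis in erLor0 as well.

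In erCriz0 the 5 promoters with the largest gain were those of SERPINB3, CHST1, PRSS2, FHL2 and LYPD1, of which SERPINB3, CHST1 and LYPD1 had little RNA in naive cells. The SERPINB3 peak, at the start of a serine protease inhibitor of squamous epithelia, was at 5.94 in naive cells, 9.21 in erCriz0, 5.06 in erAlec0 and 5.17 in erLor0. SERPINB3 RNA was at 3.72, 8.67, 4.32 and 3.88 in the same order. Both were high in erCriz0 alone, with changes of 3.28 and 4.94, while other peaks of the gene had a median change of 1.49. The reads of SERPINB3 can be shared with a near-identical neighbouring gene, so its values are uncertain. The CHST1 peak, at a sulfotransferase of keratan sulfate, rose from 6.06 to 9.11, with RNA from 3.80 to 4.85. The peak of LYPD1, a membrane-anchored protein of the Ly6 family, rose from 6.51 to 8.89, with RNA from 4.47 to 6.66. That of FHL2, a LIM-domain cofactor, rose from 6.23 to 8.65, with RNA from 9.19 to 10.98. In erAlec0 and erLor0 the peaks of SERPINB3, CHST1, LYPD1 and FHL2 stayed within 1 of naive. There the CHST1 peak was at 6.39 and 6.88 and the FHL2 peak at 5.38 and 5.26, while that of PRSS2 changed by -0.47 and -1.06. In erCriz0 the PRSS2 peak changed by 2.42 while PRSS2 RNA changed by -1.86.

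Promoter and RNA also rose in erCriz0 at MX2, SERPINA1 and IFI16. The peak of MX2, an interferon-induced antiviral GTPase, was at 5.76, 7.84, 5.53 and 5.52 in naive cells, erCriz0, erAlec0 and erLor0, and its RNA was at 3.63, 7.59, 3.65 and 3.69. That of SERPINA1, alpha-1-antitrypsin, was at 7.70, 9.42, 8.49 and 7.41, with RNA at 6.42, 9.36, 7.34 and 5.61. IFI16, a sensor of DNA, went from 6.19 to 7.45 at the peak and from 4.44 to 9.46 in RNA. The list of interferon-stimulated genes had 9 members with a promoter peak. Of these, 2 (IFIT3 at 1.38 and IFI6 at 1.11) were up in erCriz0 and 0 in erAlec0 and erLor0, where 6.02%, 9.12% and 8.95% of all 20973 genes had their peak up. RNA of 4 was up in erCriz0 and of 0 in the other lines. Over all expressed genes with a promoter peak, RNA was up at 2.27%, 2.03% and 0.929% in erCriz0, erAlec0 and erLor0. The median change of the 9 peaks was 0.53, 0.48 and 0.46, against 0.33, 0.23 and 0.38 over all genes.

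Falls of promoter peaks in erCriz0 were mostly not shared by RNA, which was down at 5 of the 40 genes concerned (12.5%). Over all expressed genes with a promoter peak, RNA was down at 1.52%. The largest fall of a peak belonged to STEAP2, a metalloreductase, at 4.44 in naive cells and 2.88 in erCriz0, and its RNA was at 9.56 and 10.25. The SYT12 peak went from 5.25 to 3.71 and the SHOC1 peak from 7.34 to 5.85. The peak of ANTXR2, a receptor for anthrax toxin, was at 7.19, 5.78, 5.49 and 5.19 in naive cells, erCriz0, erAlec0 and erLor0, below naive by more than 1 in all 3 lines, and its RNA was at 9.47, 10.90, 10.54 and 9.76. Among 9799 protein-coding expressed genes with a peak above the level minimum, both measures were down in erCriz0 at 2, SEMA3F and NEDD9. The peak of SEMA3F, a secreted guidance protein, went from 7.01 to 5.75 with RNA from 11.30 to 10.17. That of NEDD9, a focal adhesion scaffold, was at 5.25, 4.12, 6.87 and 5.35, with RNA at 8.44, 7.27, 9.91 and 9.21, so it was lowest in erCriz0 and highest in erAlec0 by either measure. Both measures were up at 66 of the 9799 genes.

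In erAlec0 the 5 largest gains belonged to SHE, TCHHL1, FLT1, AASS and OTULINL. The peak of TCHHL1, a trichohyalin-like member of the S100 fused-type family, was at 8.04, 7.75, 10.71 and 7.96 in naive cells, erCriz0, erAlec0 and erLor0, with RNA at 4.08, 4.14, 7.24 and 4.28. Both were high in erAlec0 alone. The peak of AASS, an enzyme of lysine degradation, was at 4.76, 5.32, 7.25 and 5.57, with RNA at 6.56, 7.37, 8.64 and 7.10, and another promoter peak of the gene changed by 1.98 in erAlec0. That of SHE, an SH2-domain adaptor, was at 6.63, 6.57, 9.94 and 8.61, with RNA at 3.64, 3.84, 4.85 and 4.70. The peak of FLT1, a receptor of vascular endothelial growth factor, rose from 3.83 to 6.34 in erAlec0 while its RNA was at 4.79 and 4.86. That of OTULINL rose from 6.63 to 9.05, with RNA at 6.69 and 6.50. Acetylation thus rose by more than 2 at FLT1 and OTULINL while RNA changed by 0.07 and -0.18.

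Some gains of erAlec0 were shared by erLor0. The peak of MSLN, mesothelin, was at 7.89, 7.35, 9.47 and 9.36, with RNA at 3.96, 4.21, 6.11 and 5.62. That of NXN, nucleoredoxin, was at 3.02, 3.28, 5.38 and 4.66, with RNA at 6.04, 5.50, 7.78 and 7.19. HOPX, a homeodomain-only protein of alveolar cells, had its peak at 8.17, 8.18, 9.72 and 9.50 and RNA at 4.96, 4.70, 6.95 and 7.37. Peak and RNA of these 3 were near or below naive in erCriz0 and above it in the other lines. Both measures were up at 49 of the 9799 genes in erAlec0 and at 42 in erLor0.

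The 5 largest falls in erAlec0 belonged to BPIFB2, PIWIL1, ZNF467, ZNF132 and FJX1, and of these RNA was down at BPIFB2 alone. The peak of BPIFB2, a secreted BPI-fold protein, was at 10.13, 10.45, 7.79 and 8.72 in naive cells, erCriz0, erAlec0 and erLor0, with RNA at 9.13, 6.65, 5.77 and 5.69. That of BPIFA2, of the same family and on the same chromosome, was at 9.42, 10.20, 7.63 and 8.26, with RNA at 8.92, 6.83, 5.75 and 5.87. At both, RNA was below naive by more than 2 in all resistant lines, while the peak was above naive in erCriz0 and below it by more than 1 in the other lines. The peak of SOBP, a nuclear zinc finger protein, was at 8.82, 9.96, 7.55 and 7.17, with RNA at 7.16, 5.38, 5.06 and 4.78, so the peak was again above naive in erCriz0 while RNA was below it. PIWIL1, a piRNA-binding protein of the germline, went from 6.18 to 3.92 at the peak with RNA at 7.30 and 7.32. ZNF467, a zinc finger protein, went from 9.63 to 7.63 at the peak while its RNA rose from 7.84 to 8.93. Both measures were down at 5 genes in erAlec0 and at 9 in erLor0.

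In erLor0 the largest gains included promoters of 1 stretch of chromosome 1. The peak of VANGL1, a planar cell polarity protein, was at 6.58, 7.19, 7.24 and 9.02, with RNA at 9.36, 9.02, 8.65 and 10.57. TRIM45 rose from 8.09 to 10.37 with RNA from 5.02 to 6.42, PHTF1 from 7.72 to 10.11 with RNA from 7.46 to 8.72, and NBPF26, whose reads can be shared with its paralogs, from 5.35 to 8.64. In the stretch of chromosome 1 that holds these 4 genes, 71 of 84 promoter peaks (84.5%) were up in erLor0, with a median of 1.73, and other peaks there had a median of 1.32. In erCriz0 and erAlec0, 2 and 10 of the 84 were up. The stretch held 3.58% of all promoter peaks up in erLor0. Between 14 and 22 Mb of chromosome 17, 55 of 143 promoter peaks were up in erAlec0, with a median of 0.87 against 0.69 for other peaks. Gains there were thus not particular to promoters.

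Outside these stretches the peak of LPAR3, a receptor for lysophosphatidic acid, was at 2.28, 2.89, 3.72 and 4.71 in naive cells, erCriz0, erAlec0 and erLor0, with RNA at 4.85, 5.19, 5.54 and 6.31. Both were highest in erLor0, and the peak remained low in every line. The peak of TRMT44, a tRNA methyltransferase, rose from 6.89 to 9.44 and that of SDK1, an adhesion molecule, from 3.16 to 5.56, while RNA was at 6.43 and 6.62 for TRMT44 and at 6.65 and 6.94 for SDK1. Among falls in erLor0, TNFAIP2, induced by tumour necrosis factor, went from 11.32 to 9.52 at the peak and from 11.04 to 9.91 in RNA. GRAMD1C, a cholesterol transfer protein, went from 4.85 to 3.09, with RNA at 5.73 and 5.81. PRSS1 and PRSS2, near-identical trypsinogen genes whose reads cannot be assigned with certainty, had both measures down in erLor0 and their peaks up in erCriz0.

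Peaks around called promoters lay on the same side as the call of the median around all promoters. The median change of other peaks within 1 Mb was 0.03, 0.15 and 0.05 around up promoter peaks in erCriz0, erAlec0 and erLor0 and -0.28, -0.30 and -0.30 around down ones, against -0.08, -0.05 and -0.04 around all promoter peaks. These medians are over peaks not chosen for a change, so they are no measure of whether a call was local.

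**Figure D5:**
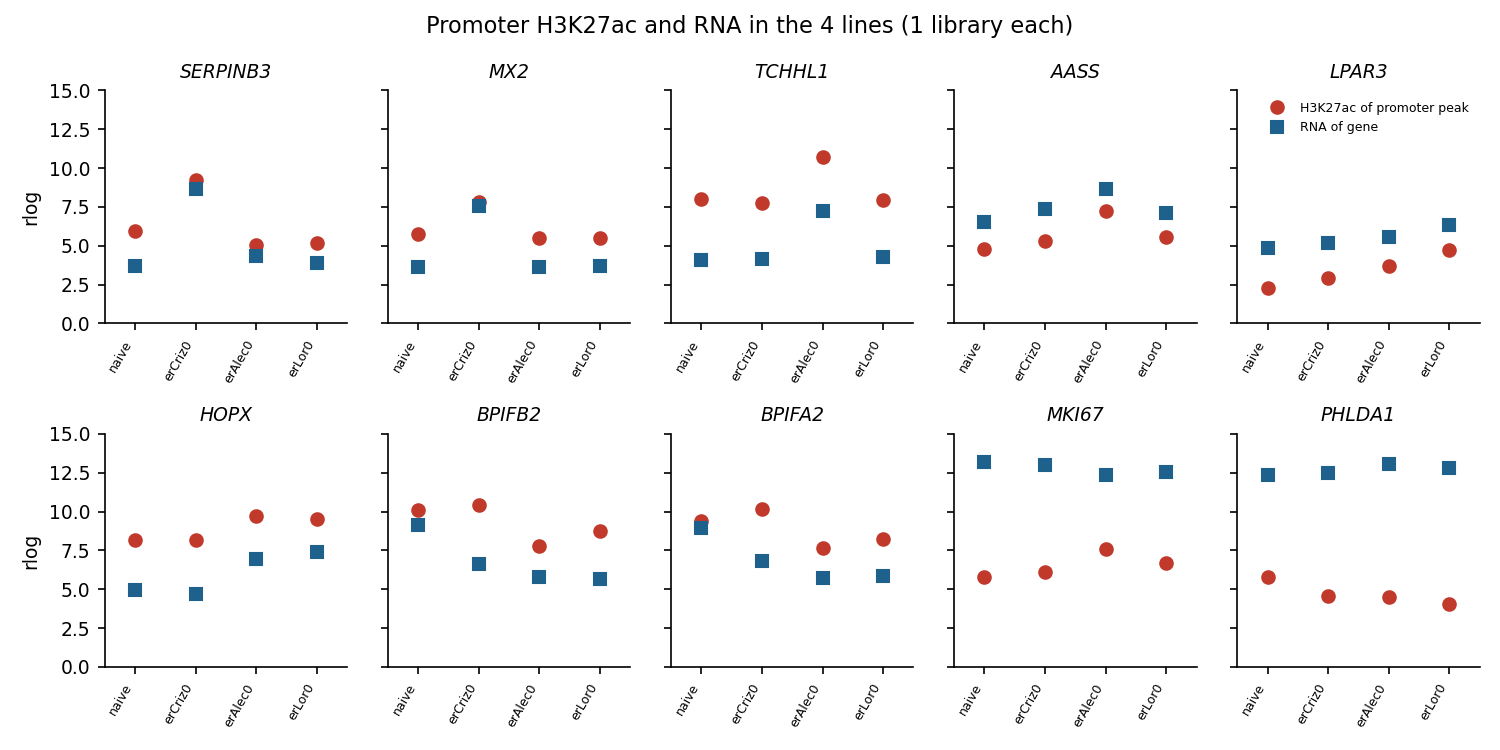
H3K27ac rlog of the promoter peak nearest the start (red circles) and RNA rlog (blue squares) in naive cells, erCriz0, erAlec0 and erLor0 (x axis, 1 library each) for 10 genes. SERPINB3 and MX2 are high in erCriz0, TCHHL1 and AASS in erAlec0 and HOPX in erAlec0 and erLor0, while at MKI67 the peak reaches 7.62 in erAlec0 as RNA falls from 13.19 to 12.39.

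In erAlec0 some promoters gained H3K27ac while RNA fell. The peak was up and RNA down at 29 of the 9799 genes in erAlec0, at 11 in erCriz0 and at 1, AMPD3, in erLor0. The reverse, peak down and RNA up, was found at 9 genes in erAlec0, at 2 in erCriz0 and at 2 in erLor0. In erAlec0 these included CXCL8 (-1.31 at the peak and 2.74 in RNA), UNC13A (-1.66 and 1.93) and IFI16 (-1.31 and 1.79). Taken alone, 700 of the 9799 genes had the peak up and 212 had RNA down in erAlec0, while 97 had the peak down and 194 had RNA up. The 29 included TYMS, PRIM1, MCM3, CDC6 and TICRR, which act in nucleotide synthesis and replication, the cyclins CCNE2 and CCNB2, the transcription factors MYB, MYBL2, E2F7 and E2F8, and the centromere proteins CENPU and HJURP. They also included genes with other roles, such as AMPD3, EYA2, MYO3A, CNR1, GALNT13, MID1, RNFT2 and PRPS1, and no theme was tested. The PRIM1 peak, at a primase subunit, was at 8.00, 8.44, 9.66 and 9.40 in naive cells, erCriz0, erAlec0 and erLor0, with RNA at 8.55, 8.00, 7.10 and 7.91. The STMN1 peak, at a regulator of microtubules, was at 4.06, 4.75, 6.13 and 5.85, with RNA at 9.55, 8.90, 8.16 and 8.79. The E2F8 peak, at a repressor of cell cycle genes, was at 7.75, 8.08, 9.70 and 9.64, with RNA at 8.71, 8.26, 7.51 and 8.50. Peaks were thus highest and RNA lowest in erAlec0 at these 3.

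The 29 genes were chosen on erAlec0, so their values there are a description. In erAlec0 the medians were 1.26 at the peak and -1.20 in RNA. In erLor0 they were 0.90 and -0.70, with 12 peaks up, all 29 peaks above naive and all 29 RNAs below it. In erCriz0 they were 0.44 and -0.54, with 3 peaks up, 25 above naive and 27 RNAs below it. These lines share the naive library with erAlec0, and over all expressed genes with a promoter peak 88.0% of peaks in erLor0 and 86.4% in erCriz0 lay above naive, with RNA above naive at 5181 and 5111 of 10763. At MYB the peak nearest the start changed by 1.39 in erAlec0 and another, longer promoter peak by 0.95, while RNA changed by -2.39. At E2F7 the peak was at 4.96, 5.69, 6.33 and 6.44 and RNA at 8.59, 8.16, 6.83 and 7.72. Among the stretches printed above, CENPU was at 5.88, 6.25, 7.49 and 7.24 at the peak and ZNF367 at 7.81, 8.21, 9.11 and 8.80, with RNA changes in erAlec0 of -1.52 and -1.48.

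In a list of cell cycle genes 2 peaks were up and 5 RNAs down in erAlec0, at different genes. It had 9 members with a promoter peak and 1, CCND1, with a broad one. The peaks up were those of MKI67 at 1.84 and TOP2A at 1.13, where 9.12% of all genes had the peak up. Another promoter peak of TOP2A, at 6.37 in naive cells, changed by -0.16 in erAlec0. The median change of the list in erAlec0 was 0.91 at the peak and -1.10 in RNA, with 0 of 9 RNAs above naive. In erLor0 the medians were 0.75 and -0.61 and in erCriz0 0.01 and -0.83, with 0 peaks up and 1 RNA down in either. Over all genes the peak medians were 0.33, 0.23 and 0.38 in erCriz0, erAlec0 and erLor0. RNA was down at 1.52%, 2.10% and 0.688% of all expressed genes with a promoter peak, with median RNA changes of -0.02, -0.01 and -0.01. MKI67, a marker of cycling cells, was at 5.78, 6.11, 7.62 and 6.72 at the peak and at 13.19, 13.01, 12.39 and 12.55 in RNA. PCNA, the replication clamp, changed by -0.07 at the peak and by -1.81 in RNA in erAlec0. In bulk RNA, fewer cycling cells and less RNA per cell cannot be told apart.

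Of 10 YAP and TEAD genes, 6 had the promoter peak up in erAlec0 and 4 in erLor0. YAP is a coactivator that binds DNA through TEAD factors and drives genes of the cytoskeleton and growth. All 10 listed genes had a promoter peak, and in erCriz0 0 were up and 1, AJUBA, was down. Over all genes 6.02%, 9.12% and 8.95% were up in erCriz0, erAlec0 and erLor0. The medians of the list were 0.27, 1.19 and 0.72, against 0.33, 0.23 and 0.38. The CCN1 peak, at a matricellular target of YAP, was at 7.10, 7.05, 8.67 and 8.31, with RNA at 8.09, 8.56, 9.20 and 8.90. That of LATS2, a kinase upstream of YAP, was at 7.02, 7.27, 8.30 and 8.06, with RNA at 8.21, 8.76, 9.10 and 8.84. That of TEAD1 was at 6.27, 6.89, 7.60 and 7.55, with RNA at 10.91, 11.54, 11.26 and 11.18. Another promoter peak changed by -0.29, 0.34 and 0.49 at TEAD1 and by -0.57, 0.42 and 0.17 at CCN1 in erCriz0, erAlec0 and erLor0. CCN2, also listed, changed by 0.28, 0.97 and 0.19 at the short peak nearest its start. A longer promoter peak of CCN2, at 9.28 in naive cells, changed by -0.30, -0.59 and -1.34, a fall past the limit in erLor0. The median RNA change of the list was 0.34, 0.37 and 0.18, so the order of the peaks was not that of RNA. ANKRD1, another target, changed by 1.84 at the peak in erAlec0 with RNA at 1.40 and 1.66, under the level counted as expressed.

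Receptor tyrosine kinases pass growth signals across the cell membrane, and ALK is one of them. Of 15 listed genes, 11 had a promoter peak, and 1, 4 and 5 were up in erCriz0, erAlec0 and erLor0, where 6.02%, 9.12% and 8.95% of all genes were. The medians were 0.50, 0.77 and 0.94, against 0.33, 0.23 and 0.38 over all genes, while RNA was up at 2, 1 and 0. Over all expressed genes with a promoter peak, RNA was up at 2.27%, 2.03% and 0.929%. The FGFR1 peak, at a fibroblast growth factor receptor, was at 3.09, 3.80, 4.76 and 4.89, with RNA at 6.38, 6.61, 7.29 and 6.82. FGFR2, of the same family, was at 3.84, 4.46, 5.94 and 5.54 at the peak and at 4.31, 4.04, 4.43 and 4.35 in RNA. The IGF1R peak, at the receptor for insulin-like growth factor, was at 9.05, 9.49, 10.66 and 10.28, with RNA at 10.94, 11.04, 11.12 and 11.11. Its peak thus rose by 1.61 in erAlec0 while RNA rose by 0.18. EGFR, the epidermal growth factor receptor, changed by 1.32, 0.44 and 0.94 at the peak and by 1.09, 0.85 and 0.68 in RNA. ERBB2, with a peak at 8.37 in naive cells, changed by -0.02, 0.09 and 0.19 at the peak and by -0.34, 0.58 and 0.43 in RNA. The peak at the start of ALK was weak, at 2.93, 3.40, 2.71 and 2.98, while ALK RNA was at 8.18, 10.65, 9.58 and 8.10. In this line the fused 3′ part of ALK is read from the EML4 promoter, so the peak at the ALK start does not mark the start of the fusion transcript.

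Of 6 mesenchymal genes with a promoter peak, 1, 4 and 1 were up in erCriz0, erAlec0 and erLor0, with medians of 0.80, 1.07 and 0.52. These counts and those of the other lists here stand beside 6.02%, 9.12% and 8.95% of all genes up and 1.46%, 3.11% and 2.39% down, with medians of 0.33, 0.23 and 0.38. RNA of the 6 mesenchymal genes was up at 3, 0 and 1, with medians of 1.14, 0.65 and 0.54, so the order of the peaks was not that of RNA. Over all expressed genes with a promoter peak, RNA was up at 2.27%, 2.03% and 0.929%, with medians of -0.02, -0.01 and -0.01. The FN1 peak, among the 4 up in erAlec0, was at 3.17 there, under the level minimum of 3.91. The peak of WWTR1, the YAP paralog TAZ, was at 5.32, 4.89, 7.18 and 6.13, with RNA at 9.52, 10.92, 10.39 and 10.51, and that of CD44, an adhesion receptor, at 5.44, 6.27, 6.60 and 6.99, with RNA at 10.25, 11.57, 10.88 and 11.76. Of 12 epithelial genes 8 had only a broad peak, among them CDH1, EPCAM and KRT8, and 0 of the other 4 were called in any line. Of 10 ERK pathway outputs with a promoter peak, PHLDA1 was down in the 3 lines, at 5.77, 4.56, 4.49 and 4.02, while its RNA was at 12.33, 12.47, 13.09 and 12.82. SPRY4, a feedback inhibitor of this pathway, was down in erAlec0 at -1.24 and ETV5 up in erCriz0 at 1.08. DUSP5 was not called at the peak nearest its start. A longer promoter peak of DUSP5, at 8.11 in naive cells, changed by 0.09, -1.75 and -1.37, while RNA changed by 0.48, 1.45 and 0.92. Among 7 AP-1 subunits FOSL2 (1.14) and ATF3 (1.07) were up in erCriz0, with RNA changes of 1.28 and -0.37. Of 7 NRF2 targets GCLC alone was called, at 1.14 in erAlec0 with RNA at -0.51. Of 5 lung lineage genes, SFTPB was up in erCriz0 (1.66), HOPX in erAlec0 and erLor0, and CEBPA in the same lines (1.43 and 1.56) with RNA changes of 0.32 in each. NKX2-1 and FOXA1 had only broad peaks.

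Motif letters were counted in RefSeq promoter windows of 250 bases before and 50 after the start. A window was found for 11496 genes, and for 9750 its start lay within 500 bp of the start in the table. The letters were TATAAA for the TATA box, CCAAT for the box of that name, GGGCGG for the GC box, CCGGAAG for ETS, TTTNGCGC for E2F, TTTGAA for the CHR element, TGANTCA for AP-1, TGACGTCA for the CRE element, GGAATG for TEAD and TGACNNNGC for the ARE element, read on both strands, where N is any base and matches may overlap. Of all 34943 windows, 11.6%, 34.6%, 44.9%, 10.2%, 1.77%, 15.2%, 7.72%, 1.84%, 14% and 13.3% held them, in this order. A match is a description of letters and not a bound site. Promoters that gained H3K27ac seldom held ETS letters. They were present in 22.4% of the windows of 6981 protein-coding expressed genes. Of those with the peak up, 4.20% of 286 in erCriz0, 6.79% of 486 in erAlec0 and 7.99% of 563 in erLor0 held them. Promoters with the peak down also seldom held them, at 1 of 12, 5 of 52 and 0 of 27 in the same order. The low share was thus not particular to gains.

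At promoters that were up, the low share of ETS letters was seen at each level of H3K27ac. In the lowest of 3 equal classes of level, 1.75%, 5.26% and 7.02% of 399 promoters with ETS letters were up in erCriz0, erAlec0 and erLor0, against 10.3%, 16.4% and 18.6% of 1928 without. In the middle class the shares were 0.649%, 0.812% and 1.95% of 616 with the letters and 2.98%, 4.97% and 6.72% of 1711 without. In the highest class they were 0.182%, 1.28% and 0.912% of 548 with the letters and 1.41%, 2.87% and 2.47% of 1779 without. Over all classes the median change was 0.26, 0.17 and 0.34 with the letters and 0.39, 0.32 and 0.46 without, while median naive RNA was 8.55 and 8.40. GC-box letters showed no such deficit, at 74.2% of all and 71.3%, 79.0% and 81.7% of promoters up. CRE letters were in 3.60% of all and 2.10%, 1.44% and 1.78% of promoters up. AP-1 letters were in 3.75% of all and 6.99%, 2.88% and 3.20% of promoters up. Of the 29 genes with peak up and RNA down in erAlec0, 21 had a window, and CCAAT letters were in 14 of these (66.7%) against 37.9% of the 6981, and E2F letters in 5 (23.8%) against 3.51%. TEAD letters were in 8.39%, 11.1% and 10.3% of promoters up, against 9.80% of the 6981.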

How the data were processed

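The authors deposited log2 values (rlog, from DESeq2) for H3K27ac ChIP-seq peaks and RNA, with each hg38 peak paired to genes up to 20 kb away. Per the methods, ChIP-seq reads were aligned with BWA and duplicates removed, MACS2 peaks of 4 samples were merged and reads were counted with featureCounts, and RNA reads were aligned with HISAT2 and counted with HTSeq-count. Versions and input subtraction are not given in the sources used here. Read totals cannot be recovered from rlog, so depth is unknown and counting error could not be given. Also deposited, and not used, are correlations of each pair with p-values.

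Each peak was counted once. CpG content came from hg38, gene types from GENCODE 44 and promoter windows from RefSeq. Genes named were drawn from the 5 largest rises and falls per line among protein-coding expressed genes whose peak reached the level minimum. They were also drawn from the 5 with both measures up, the 5 with both down, 3 opposite ones, and list members. Some genes of these rankings and lists are not described. Genes with both measures moved were ranked by the sum of the changes, and those named among the 29 beside MYB were chosen after their values were seen. Members, lists and rules were chosen with earlier results of these data known. One cell type marker of the lists is not reported here. Groups are the 4 lines, with 1 library each, so no test was run. The alternatives were other windows, lengths, limits, scalings and filters. The code was tested on simulated data. Python 3.11.15, numpy 2.4.6, pandas 2.3.3 and matplotlib 3.10.9 were used.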

Additional observations from a re-analysis of the deposited data

Results flagged for a closer look

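At 7 of the named genes the promoter peak moved past 1 in opposite directions in erCriz0 and another resistant line, or in erCriz0 and erAlec0. The difference between lines was not tested, since each line has 1 library. In the order erCriz0, erAlec0 and erLor0, the changes were 2.42, -0.47 and -1.06 at PRSS2 and 1.64, -0.84 and -1.01 at PRSS1. They were 1.25, -1.31 and -1.52 at IFI16, 1.14, -1.27 and -1.65 at SOBP, and 1.22, -1.66 and -1.28 at UNC13A, a priming factor of synaptic vesicles. They were 1.28, -1.03 and -0.94 at F5, coagulation factor V. At NEDD9 they were -1.13, 1.62 and 0.10, with the rise in erAlec0. PRSS1 and PRSS2 are near-identical and share reads.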

How the results depend on the processing

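No paired analysis was possible because each line has 1 library. Of 274 values under 18 other settings, 186 kept close to the reported value, and 3 of the settings were added after the data were seen. Depth is unknown, so no limit by depth can be given. Values below are in the order erCriz0, erAlec0, erLor0. The share of promoter peaks called was 8.22%, 13.8% and 12.6% with a window of 500 bp, 15.0% in erAlec0 with 2000 bp, 6.86%, 10.6% and 11.2% for protein-coding genes, 31.7%, 36.7% and 39.2% with a limit of 1.5-fold, and 0.233%, 1.20% and 0.523% with a limit of 2. It was 10.2% and 15.1% in erCriz0 and erLor0 with each library centred, 7.90%, 14% and 11.8% after quantile normalization, 13.4% in erLor0 above the level minimum, 10.0%, 16.6% and 14.4% for peaks reaching 1 gene, 9.18% in erCriz0 for peaks written to at most 6 decimals, and 15.2% and 11.1% in erAlec0 and erLor0 less other peaks of like GC content. Centring raised the median change of all peaks in erLor0 from 0.00 to 0.10. Counts of peaks up and down moved by over 1.5 times with a limit of 1.5-fold (5137, 5392 and 6351 up, 1537, 2317 and 1884 down) and of 2 (44, 217 and 86 up, 5, 35 and 24 down). They also moved in the parts of the table with at most 6 decimals (575, 890 and 788 up, 213, 379 and 324 down) and with more (800, 1275 and 1198 up, 239, 504 and 379 down), where fewer peaks entered. For protein-coding genes 832 and 1209 were up in erCriz0 and erAlec0 and 116, 262 and 171 down. Those down were 790, 1414 and 1147 with 2000 bp and 285 in erCriz0 with 500 bp.

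The median promoter change at genes with RNA up was 0.65 in erCriz0 with a limit of 1.5-fold, 0.89, 0.19 and 1.21 with a limit of 2, 0.54 in erCriz0 after quantile normalization, and 0.67 in erLor0 for peaks with at most 6 decimals. At genes with RNA down it was 0.34 in erLor0 with a limit of 1.5-fold, 0.40, -0.28 and -0.94 with a limit of 2 (6, 15 and 11 genes), 0.00 and 0.20 in erCriz0 and erAlec0 after quantile normalization, and 0.36 and -0.13 in erCriz0 and erLor0 for peaks reaching 1 gene. The correlation of promoter and RNA level in naive cells, erCriz0, erAlec0 and erLor0 was 0.37, 0.36, 0.38 and 0.37 for protein-coding genes, 0.40, 0.38, 0.39 and 0.38 for peaks reaching 1 gene, 0.39, 0.41, 0.42 and 0.43 over all genes and 0.31, 0.29, 0.30 and 0.29 over every pair of a promoter peak and a gene. It was 0.36 in naive cells for peaks with at most 6 decimals. The cause of these differences was not tested. In every setting more promoter peaks were up than down in each line.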

Other observations

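In 10 Mb windows with at least 20 promoter peaks, erCriz0 had its highest median promoter change, 0.93, between 60 and 70 Mb of chromosome 18, where 11 of 30 promoter peaks were up and 0 down and where SERPINB3 lies. Its lowest median, -0.22, was found in the first 10 Mb of chromosome 6, where 1 of 84 was up and 11 were down. In erAlec0 the lowest median, -0.34, was found between 60 and 70 Mb of chromosome 20, with 1 of 92 up and 20 down.

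Promoters of long non-coding RNA genes fell more often than those of protein-coding genes. With 1 peak per gene, 2.01%, 5.48% and 4.23% of 5178 long non-coding RNA genes had the peak down in erCriz0, erAlec0 and erLor0, against 0.572%, 1.28% and 0.879% of 12403 protein-coding genes. Their shares up were 6.99%, 10.4% and 8.73%, against 5.50%, 7.95% and 9.30%. Median naive levels were 7.17 and 7.74. Peaks can reach the start of a gene of each kind, in which case both carry the same value.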
